A study of Mus musculus with 2 samples.

Results

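The cells described here are the primary chondrocytes with the highest share of heat shock transcripts. They came from 1 single-cell RNA sequencing library of freshly isolated costal cartilage-derived stem cells (CDSCs). A barcode entered the comparison if it held at least 500 genes, at least 5000 UMIs (unique molecular identifiers, each marking 1 captured transcript), at most 10% mitochondrial UMIs and less than 0.3% Col1a1 UMIs. In each such cell the UMIs of Hspa1a, Hspa1b, Hsph1 and Dnajb1 were summed and divided by all UMIs of the cell. The top 10% by this score, 1083 of 10829 cells, are called heat shock-high cells, and the remaining 9746 are called the other cells. The 10829 cells were 91.0% of the 11896 primary barcodes, and the series held 22694 barcodes in all.

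The study asked whether cells of rib cartilage can rebuild an irradiated bone marrow niche, and profiled primary CDSCs and CDSCs cultured to passages 2 to 3, with 1 library of each. Per the study's methods, CDSCs were released by collagenase from the rib cartilage of newborn C57BL/6J mice that carried CD45.1 or ZsGreen, and were sorted as CD45-CD51+ cells. The labels name bone marrow as the tissue, and how many mice were pooled was not stated. With 1 library per condition there was no replicate, cells are not replicates, and no test was run: every interval below is a 95% interval that covers counting error only.

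The heat shock response is a transcriptional programme run by heat shock factors such as HSF1, which bind repeated GAA units in promoters when unfolded proteins accumulate. Its products are mostly chaperones. HSP70 proteins bind exposed stretches of unfolded chains, J-domain proteins hand them their clients and switch on their ATPase, and nucleotide exchange factors such as HSP110 and BAG proteins release the clients again. Chondrocytes secrete a matrix rich in type II collagen and aggrecan and are known to make heat shock proteins when they are stressed.

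The heat shock-high cells were chondrocytes by their markers. Transcripts of all 19 chondrocyte markers were present above 10 CPM (counts scaled to 1000000 UMIs per group of cells), Col2a1 of type II collagen was detected in 100% of the heat shock-high cells, and its level was 38422 CPM. Markers of 5 other cell types were scarce. The 7 endothelial markers summed to 5.70 CPM, the 7 haematopoietic markers to 9.24 CPM, the 5 mast cell markers to 0.69 CPM, the 5 erythroid markers to 1.77 CPM and the 4 Schwann cell markers to 4.13 CPM. The corresponding sums in the other cells were 14.8, 8.13, 9.87, 5.49 and 3.95 CPM. Cdh5, Emcn and Tpsb2, which mark endothelial and mast cells, had no UMI in the heat shock-high cells. Transcripts of 3 further lists were present. The skeletal muscle list summed to 124 against 331 CPM, most of it Tnnt3. The smooth muscle and pericyte list summed to 192 against 215 CPM, with Cspg4 at 172 against 161 CPM, while the pericyte gene Rgs5 had no UMI in the heat shock-high cells and 94 in the others. The fibroblast and perichondrium list summed to 3253 against 2788 CPM, with Dcn at 1463 against 1368, Lum at 866 against 788 and Col1a2 at 723 against 506 CPM. The part of such cells or transcripts in the results was not tested.

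The heat shock-high cells were shallower than the others. Their median was 7898 UMIs and 2642 genes per cell, against 10810 UMIs and 3059 genes. They made up 20.1% of the cells in the lowest quartile of UMIs per cell (5000 to 7910 UMIs) and 4.39% in the highest quartile. The part of depth in the results was not tested, and ratios within quartiles are given beside the main results. Other measures of cell quality lay close together. The median mitochondrial share was 1.95% against 1.81%, the median share of ribosomal protein UMIs was 15.9% against 16.2%, and after every cell was thinned to 5000 UMIs the median number of genes was 1980 against 1918. The 2 libraries shared 32 barcodes, and 1 of these was a heat shock-high cell.

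The score had no gap at the cut. It stood at 28.9 per 10000 UMIs, the 5 cells just below it had scores of 28.86 to 28.93, the 5 just above had 28.99 to 29.06, and 329 cells lay within 10% of it on either side. The cells above the cut are a range of a score. The score of the heat shock-high cells had a median of 42.9 and reached 197, and 51 of them held at least 100. In the other cells the median was 3.997, and 790 of them held no UMI of the scoring genes. The heat shock-high cells held 38.8% of all scoring UMIs of the 10829 cells and 7.64% of all UMIs. Of the 10798 cultured barcodes, 4499 passed the same filter (41.7%), and 6159 held under 5000 UMIs. The cultured cells that passed had a median score of 1.26 and a maximum of 10.97 per 10000 UMIs. None reached the cut, which allows a share of up to 0.0667% (3 counts of the total; the exact binomial upper limit is 0.0820%). The cultured cells had a median of 66712 UMIs, against 10455 in the primary cells. Over all barcodes, the donor label ZsGreen had 60988 UMIs before culture and 0 after it, so the donor strain may differ as well. Culture, depth, library and donor strain cannot be told apart in this pair.

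The scoring genes chose the cells, so their levels are a description. Hspa1a and Hspa1b encode the 2 inducible cytosolic HSP70 proteins. Hspa1a (chromosome 17, 34969190 to 34972156, minus strand, GRCm38) stood at 1797 CPM in the heat shock-high and 135 CPM in the other cells. Hspa1b (chromosome 17, 34956436 to 34959238, minus strand) stood at 711 and 64.3 CPM. Reads of these near-identical neighbours may have been split or lost between them, so their separate levels are uncertain. Hsph1 (chromosome 5, 149614287 to 149636376, minus strand), which encodes the HSP110 exchange factor, stood at 927 and 104 CPM. Dnajb1 (chromosome 8, 83608193 to 83612653, plus strand), the J-domain partner of inducible HSP70, stood at 1475 and 339 CPM. It was the scoring gene with the broadest expression outside the heat shock-high cells: it gave 52.7% of the scoring UMIs of the other cells but 30.1% in the heat shock-high cells, where Hspa1a gave 36.6%. In cultured cells Hspa1a and Hspa1b were at 3.42 and 2.42 CPM, Dnajb1 at 41.9 CPM and Hsph1 at 94.9 CPM, the last close to the level of the other primary cells.

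The scoring genes occurred together in single cells. UMIs of all 4 were detected in 753 heat shock-high cells (69.5%) and in 964 other cells (9.89%), and 20 heat shock-high cells owed their score to 1 gene alone. Detection of a scoring gene is what the score counts, so these shares are a description. When the top 10% was chosen by the 3 remaining genes, the gene left out of the score was still higher in the cells chosen. Its log2 ratio of heat shock-high to other cells was 2.96 for Hspa1a, 3.15 for Hspa1b, 2.68 for Hsph1 and 1.47 for Dnajb1. With Hspa1a or Hspa1b left out, its near-identical neighbour stayed in the score, so these values are not independent of the score. When the UMIs of each cell were split at random and the cells chosen on one part, the log2 ratios in the part not used were 3.56, 3.32, 3.05 and 2.04. The corresponding values from all UMIs were 3.73, 3.47, 3.15 and 2.12. The parts of the split hold the same genes in the same cells, so they bear on counting error alone.

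The upstream sequences of the heat shock genes that stood out are shown because heat shock factors act through elements in such stretches. The sequences are those of RefSeq for GRCm38.p6, 5′ to 3′ on the strand of the gene, and positions count from a RefSeq start of the gene. The heat shock element searched for is GAA, any 2 bases, TTC, any 2 bases, GAA, on either strand. Capitals mark the stretch of a match with at most 1 mismatch, and overlapping matches are capitalised as 1 run.
Hspa1a, chr17:34972237-34972296, minus strand, positions -140 to -81: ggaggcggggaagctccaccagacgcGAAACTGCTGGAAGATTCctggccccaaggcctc
Hspa1b, chr17:34959319-34959378, minus strand, positions -140 to -81: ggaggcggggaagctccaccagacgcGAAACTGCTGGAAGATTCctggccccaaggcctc
Hsph1, chr5:149636347-149636376, minus strand, positions -40 to -11: agaatctTTCTCGAAGGCTCGAGAAgaagg
Hspb1, chr5:135887779-135887838, plus strand, positions -140 to -81: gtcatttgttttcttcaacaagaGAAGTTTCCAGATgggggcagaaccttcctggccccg
Dnaja4, chr9:54699449-54699478, plus strand, positions -110 to -81: ggagccgccgGAACCTCCGCGAACGTTCtg
Dnaja1, chr4:40722338-40722358, plus strand, positions -130 to -110: cCTCTAGAAAATTCtacgagg
Zfand2a, chr5:139484651-139484711, minus strand, positions -220 to -160: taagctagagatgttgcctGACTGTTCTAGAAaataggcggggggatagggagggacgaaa
Dnajb4, chr3:152193846-152193875, minus strand, positions -30 to -1: gttcgttcgttcgctgTTCTAGAAAGTACa
Hspe1, chr1:55088048-55088077, plus strand, positions -100 to -71: gccacggtccgTTCTAGAACCTTCCGGAAg

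In GENCODE M21 the stretches of Hspa1a, Hspa1b, Hspb1 and Zfand2a lie outside annotated genes. Those of Dnaja4 and Dnajb4 lie in an intron of longer forms of these genes, that of Dnaja1 in an exon of a longer form, that of Hsph1 in an annotated 5′ UTR, and that of Hspe1 in the UTR of the divergent Hspd1. Hspa1a and Hspa1b carry the same run at the same distance, and 247 of the 250 bases before their starts are identical. In Hspa1a, Hspa1b, Hsph1, Dnaja4 and Hspe1 a match on each strand overlaps to give a run of 4 alternating units. In the window of 250 bases before and 50 after the start, 10 of the 13 heat shock genes that were at least 2-fold higher in the heat shock-high cells and had a RefSeq window held a match (76.9%). The 13 include the 4 scoring genes, which the rule chose, and Hspa4l, which reached 10 CPM through the heat shock-high cells alone, and without them 7 of 8 held a match. The 10 are the 9 genes printed above and Chordc1, whose exact matches overlap or follow its start. A gene with several starts was counted if any of its windows held a match. Among the heat shock genes on the same lists that were not 2-fold higher, 8 of 31 held a match (25.8%), and among all genes of at least 10 CPM in these cells 412 of 6499 did (6.34%). With no mismatch allowed, the counts were 3 of 13 (Chordc1, Hspe1 and Hsph1), 2 of 31 (Dnajb6 and Hspd1) and 37 of 6499 (0.569%). The matches of Hspe1 and Hspd1 are the same bases read on opposite strands, so 1 stretch counts in both sets, with and without a mismatch. The exact match of Hsph1 follows its start, at positions 37 to 49, and the matches in its printed stretch each hold 1 mismatch. Dnajb1, Bag3 and Hspa4l held no match with at most 1 mismatch in this window. A match describes letters and not binding, and the mismatch was allowed after the exact matches had been counted.

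Outside the score, 8062 genes reached 10 CPM in the heat shock-high or the other cells. Of these, 142 were at least 2-fold higher in the heat shock-high cells (1.76%) and 110 at least 2-fold lower (1.36%), 252 in either direction (3.13%), so 56.3% of the genes past 2-fold were higher. With the TMM scaling of edgeR, which moved the median of all genes from 0.08 to -0.03 on the log2 scale, the counts were 88 and 145, and 37.8% were higher. At 1.5-fold, 652 genes were higher (8.09%) and 301 lower (3.73%), 953 together (11.8%). Ratios below are best read against these medians, and since all genes were measured in the cells that the score chose, they are descriptions.

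Chaperones and their partners outside the score were higher in the heat shock-high cells as a group. Of 32 cytosolic chaperones and cochaperones with at least 10 CPM, 8 were at least 2-fold higher, 0 at least 2-fold lower and 27 above 0 on the log2 scale. The shares over all genes tested were 1.76%, 1.36% and 61.5%. At 1.5-fold, 10 of the 32 were higher and 1 lower, beside 8.09% and 3.73% of all genes tested. Their median log2 ratio was 0.36, against 0.08 over all genes. Hspa4l, an HSP110 relative of Hsph1, reached 10 CPM through the heat shock-high cells alone (12.97 against 3.66 CPM), as did Cryab, a small heat shock protein gene (10.3 against 6.02 CPM), so that a difference was a condition of their entry. Both genes are included in the counts above.

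Among the cytosolic chaperones, Hspb1 had the highest ratio of those that reached 10 CPM. It encodes the small heat shock protein HSP25, which holds unfolding proteins in solution without ATP, and stood at 523 CPM in the heat shock-high cells (509 to 538) and 130.4 CPM in the others, a log2 ratio of 2.00 (1.96 to 2.05). Hsp90aa1, the inducible cytosolic HSP90, stood at 1166 against 427 CPM, a log2 ratio of 1.45 (1.42 to 1.48). The constitutive members of the same families differed less. Hsp90ab1, the constitutive HSP90, stood at 2102 against 1444 CPM (log2 ratio 0.54), and Hspa8, the constitutive HSP70, at 2041 against 1189 CPM (log2 ratio 0.78). Hspa4, a further HSP110 relative, had a log2 ratio of 0.40. Not every member was higher, since Hspa2 and the small heat shock protein gene Hspb6 had log2 ratios of -0.52 and -0.67.

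Of the 22 cochaperones, 5 were at least 2-fold higher, beside 1.76% of all genes tested, and 19 were above 0, beside 61.5% of all genes tested. Dnaja4, which encodes a J-domain protein, had the highest ratio of all genes of at least 50 CPM outside the score, at 65.9 CPM in the heat shock-high cells and 12.4 CPM in the others (log2 ratio 2.41, 2.27 to 2.54). Dnaja1, another J-domain protein, stood at 739 against 247 CPM (1.58, 1.55 to 1.62). Both genes overlap a neighbour on the opposite strand, Wdr61 and Smu1. The J-domain family was not uniform, as Dnajb4 reached a log2 ratio of 1.17 while Dnajb6 stood at 0.33, Dnaja2 at 0.08 and Dnajb2 at 0.37. Among the BAG exchange factors Bag3, which couples HSP70 to selective autophagy and to Hspb1, stood at 332 against 143 CPM (1.22, 1.16 to 1.27), whereas Bag1 had a ratio of -0.15 and Bag2 of 0.07. Chordc1, an HSP90-binding cochaperone, stood at 97.7 against 37.5 CPM (1.38, 1.28 to 1.48). The other HSP90 cochaperones lay lower, with log2 ratios of 0.38 for Stip1, 0.41 for Ahsa1, 0.22 for Fkbp4 and 0.12 for Ptges3, while Cdc37 stood at 101.9 against 102.2 CPM.

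Of the organelle chaperone lists, the mitochondrial one held a gene past 2-fold. Hspe1, the HSP10 lid of the chaperonin, stood at 743 against 367 CPM (log2 ratio 1.02, 0.98 to 1.05). Under 10 of 19 alternative settings this ratio fell below 2-fold, to 0.77 at the lowest. Hspd1, the HSP60 barrel, stood at 226 against 142 CPM (0.67, 0.61 to 0.73). These genes lie head to head on chromosome 1 and overlap at their 5′ ends. The mitochondrial HSP70 gene Hspa9 had a log2 ratio of -0.24 and its exchange factor Grpel1 of -0.18. Of the other heat-inducible genes, Zfand2a, which encodes a zinc finger protein of the proteasome, stood at 121 against 36.7 CPM (1.72, 1.63 to 1.82) and Dedd2 at 12.97 against 7.07 CPM (0.88). Dedd2 reached 10 CPM through the heat shock-high cells alone, so a higher level there was a condition of its entry. Ubb, a polyubiquitin gene, had a log2 ratio of 0.32, and the autophagy receptor Sqstm1 of 0.31. Transcripts of the regulators themselves were near equal: Hsf1 stood at 25.1 against 24.7 CPM (log2 ratio 0.02, -0.17 to 0.21) and Hsf2 at 12.3 against 10.4 CPM (0.25, -0.03 to 0.51).

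Other protein quality control systems were not higher as groups. None of the 8 subunits of the cytosolic chaperonin TRiC was past 2-fold (median -0.12, range -0.16 to 0.05), nor any of the 25 proteasome subunits (median -0.05, range -0.28 to 0.05). Of the 15 endoplasmic reticulum chaperones and folding enzymes none was past 2-fold, with a median of -0.06. Of all genes tested 3.13% were past 2-fold, so the lack of such genes in lists this short is near that share. The median of all genes was 0.08. Hspa5, the HSP70 of that compartment, stood at 539 against 537 CPM, a log2 ratio of 0.00 (-0.03 to 0.04). The highest member was Dnajb9 at 0.50 and the lowest Pdia4 at -0.49.

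**Figure D1:**
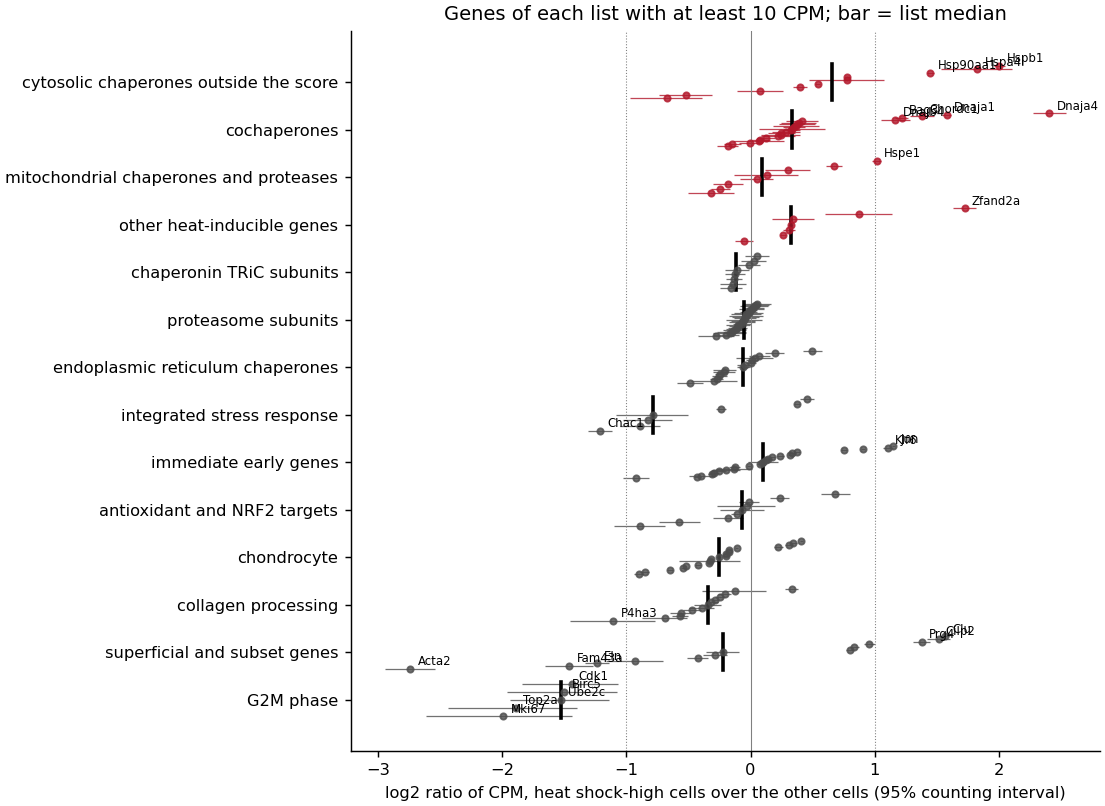
Log2 ratio of CPM, heat shock-high over other cells, with its 95% counting interval, for each gene of a list that reached 10 CPM, and the list median (black bar). Heat shock lists are red, genes past 2-fold (dotted lines) are named, and the TRiC, proteasome and endoplasmic reticulum lists lie around 0 while Dnaja4 reaches 2.41 and Acta2 -2.74.

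The heat shock genes outside the score differed among themselves in how they spread over cells. After thinning to 5000 UMIs, 38.04% of the heat shock-high cells (35.1 to 41.0) and 22.4% of the others held a UMI of Hspb1, so most heat shock-high cells had no Hspb1 UMI at this depth although the summed level was 4.01-fold higher. Dnaja4 was detected in 20.4% (18.0 to 22.9) against 5.61%. Dnaja1 and Hsp90aa1 were found in most cells of both groups, with 83.8% against 61.1% and 95.2% against 81.0%. Without thinning, the shares for Hspb1, Dnaja4, Dnaja1 and Hsp90aa1 were 43.6, 27.4, 90.6 and 97.9% in the heat shock-high cells and 34.5, 11.98, 82.2 and 94.6% in the others. Free RNA can put UMIs into cells that do not express a gene, and no cell type of this library is known to lack these genes, so the background share was not measured.

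Within deciles of the cells ordered by score, the heat shock genes and the other named genes followed different courses. For each of the 9 named heat shock genes outside the score that were at least 2-fold higher and reached 10 CPM in both groups, the level was higher in the top 1% of cells than in the last decile, by a median log2 ratio of 0.83. For 8 of the 9 the step from decile 8 to the last decile was larger than that from the lowest to decile 8. Hspb1 stood at 102 CPM in the lowest decile, 177 in decile 8, 523 in the last and 1111 in the top 1%. Hsp90aa1 stood at 303, 553, 1166 and 2255 CPM in the same bins, and Dnaja4 at 8.12, 18.1, 65.9 and 144 CPM. The 10 other named genes that met the same conditions had most of their difference earlier. Their median log2 ratio of decile 8 over the lowest decile was 1.72, 0 of the 10 had a larger step from decile 8 to the last, and in 4 of the 10 the top 1% lay above the last decile. Clu stood at 180 CPM in the lowest decile, 865 in decile 8, 1477 in the last and 1359 in the top 1%. The deciles also differed in depth, from a median of 11656 UMIs in the lowest to 7898 in the last.

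**Figure D2:**
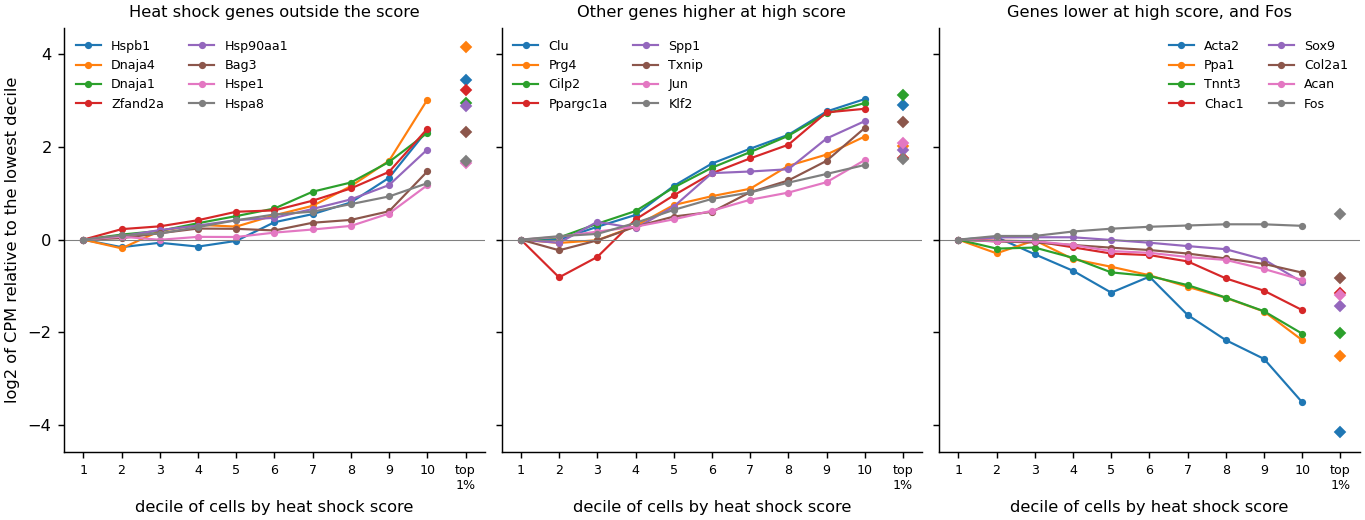
Log2 of the CPM in each decile of cells by heat shock score, relative to the lowest decile, with the top 1% of cells as diamonds. Dnaja4, Hspb1 and Hsp90aa1 (left) climb most in the last deciles and further in the top 1%, Clu and Cilp2 (middle) climb from the lowest deciles on, and Acta2 (right) goes from 231 CPM in the lowest decile to 20.2 CPM in the last while Fos stays near its level in the lowest decile.

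Genes without a known chaperone role inside the cell also stood apart in the heat shock-high cells. Of the 12 genes with the highest ratios at 50 CPM or more, Dnaja4, Hspb1, Zfand2a, Dnaja1 and Hsp90aa1 were on the heat shock lists. Txnip, an inhibitor of thioredoxin, stood at 85.3 against 25.7 CPM (log2 ratio 1.73), Arsi, a sulfatase, at 56.2 against 17.2 CPM (1.71) and Specc1 at 91.7 against 30.6 CPM (1.59). Clu, the secreted chaperone clusterin that is abundant in the superficial layer of cartilage, stood at 1477 against 498 CPM (1.57, 1.54 to 1.59). The cartilage matrix gene Cilp2 stood at 119 against 41.8 CPM (1.51), Spp1 of osteopontin at 129.5 against 45.5 CPM (1.51), and Ppargc1a, a coactivator of mitochondrial biogenesis, at 211 against 72.3 CPM (1.54). Prg4, which encodes the joint lubricant lubricin, stood at 199 against 76.5 CPM (1.38, 1.31 to 1.45).

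Acta2 had the lowest ratio of all genes at 50 CPM or more in either group. This smooth muscle actin gene stood at 20.2 CPM in the heat shock-high and 135 CPM in the other cells (log2 ratio -2.74, -2.95 to -2.54). Aoc2, an amine oxidase, stood at 11.7 against 66.7 CPM (-2.51), Prune2 at 40.9 against 174 CPM (-2.09) and the protease inhibitor gene A2m at 56.1 against 199 CPM (-1.83). Ppa1, the cytosolic pyrophosphatase, stood at 166 against 506 CPM (-1.61), and Tnnt3 of fast skeletal muscle troponin, which overlaps Prr33, at 114 against 312 CPM (-1.45). The remaining members of the 12, Pxylp1, F13a1, Fam43a, Serpina3n, Enpp2 and F3, had log2 ratios of -1.65 to -1.39. Outside these 12, the list genes Tagln, another smooth muscle gene, and Eln of elastin stood at 9.93 against 40.9 CPM (-2.04) and 88.8 against 209.8 CPM (-1.24). Tagln stayed under 50 CPM and reached 10 CPM through the other cells alone.

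Chondrocyte genes were lower on balance but none of the 19 markers was past 2-fold, and 3 (Sox9, Acan and Epyc) were at least 1.5-fold lower. Of all genes tested 3.13% were past 2-fold, so the lack of such markers is near that share, and 3.73% were at least 1.5-fold lower. The median log2 ratio of the markers was -0.26, against 0.08 over all genes. Of the 19 markers 4 were above 0, beside 61.5% of all genes tested. Sox9, the transcription factor that sets chondrocyte identity, stood at 760 against 1374 CPM (log2 ratio -0.85, -0.89 to -0.82). Acan of aggrecan stood at 1294 against 2031 CPM (-0.65), Epyc of epiphycan at 582 against 1087 CPM (-0.90) and Col2a1 at 38422 against 55168 CPM (-0.52). Those were the lowest among the markers together with Ucma at -0.54. The partners of Sox9 were higher and not lower, with log2 ratios of 0.22 for Sox5 and 0.31 for Sox6, as were Matn3 at 0.35 and Comp at 0.41. The collagen-specific chaperone gene Serpinh1, a heat shock protein of the endoplasmic reticulum known as HSP47, stood at 991 against 1207 CPM (-0.28), and of the 13 collagen processing genes only P4ha1, at 0.33, was above 0.

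The heat shock-high cells overlapped unevenly with cells high in other genes. For each set of genes the cells were ranked by the summed share of UMIs, so that by construction 10% of all cells fall in the top decile. Of the heat shock-high cells, 53.3% (50.3 to 56.3) were in the top decile for the chaperones and cochaperones outside the score, against 5.19% of the other cells. For the superficial zone genes Prg4, Clu and Cilp2 the share was 27.7% (25.1 to 30.5) against 8.03%, for Cytl1, Wif1 and Prelp 20.6% (18.2 to 23.1) against 8.82%, and for Runx3, Wnt5b and Ptch1 17.2% (14.97 to 19.6) against 9.20%. For Acta2, Grem1 and Eln it was 1.39% (0.78 to 2.27), 15 cells, against 10.96%. For Trf, Fam43a, Klf5 and Foxc2 it was 5.63% (4.34 to 7.18) against 10.49%. For each of the 5 sets other than the chaperones, most heat shock-high cells lay outside the top decile. When the cells were ranked within deciles of UMIs per cell, on both sides, the shares were 52.4% for the chaperones, 24.3% for Prg4, Clu and Cilp2, 18.4% for Cytl1, Wif1 and Prelp, 15.96% for Runx3, Wnt5b and Ptch1, 4.31% for Acta2, Grem1 and Eln and 6.06% for Trf, Fam43a, Klf5 and Foxc2. A cell shallow in UMIs reaches a high share with few counts, and for Acta2, Grem1 and Eln 3626 of the 10829 cells held no UMI, and for Runx3, Wnt5b and Ptch1 8110.

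**Figure D3:**
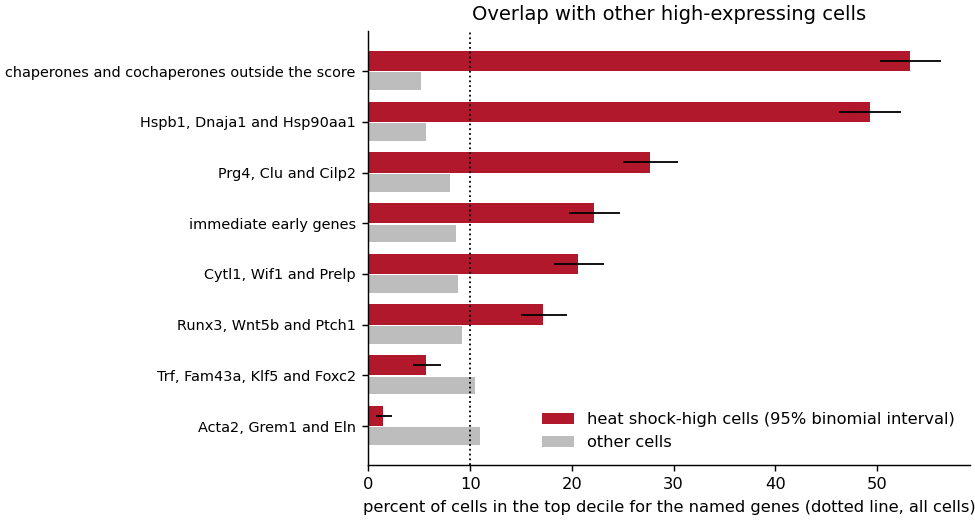
Percent of heat shock-high cells (red, with a 95% binomial interval) and of other cells (grey) in the top decile of all cells for each set of genes. The dotted line marks the 10% that holds over all cells: the chaperones reach 53.3% and Acta2, Grem1 and Eln 1.39% of the heat shock-high cells.

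The chaperones differed in how their ratios varied between subsets and depths. Within tertiles of the cells by Prg4, Clu and Cilp2, from the lowest to the highest, the log2 ratio of Hspb1 was 1.74, 1.64 and 1.79, and the median of the chaperones and cochaperones was 0.33, 0.24 and 0.33. Hspa8 had log2 ratios of 1.16, 0.89 and 0.45 in the same tertiles, Dnaja1 of 1.92, 1.56 and 1.15, Dnaja4 of 2.72, 2.38 and 1.98, and Hsp90aa1 of 1.66, 1.54 and 1.17, all lowest in the highest tertile. Heat shock-high cells made up 4.52, 5.93 and 19.6% of these tertiles. The scores of the other cells in each tertile were not compared, and their part in these ratios was not tested. Sox9 had log2 ratios of -0.78, -0.69 and -0.71 in the same tertiles. Within quartiles of UMIs per cell, from the shallowest to the deepest, Hspb1 had log2 ratios of 1.87, 2.08, 2.00 and 1.61, Dnaja4 of 2.08, 2.45, 2.47 and 2.48, and Sox9 of -0.76, -1.01, -0.90 and -0.57. Clu ranged from 0.72 to 1.64 and Acta2 from -3.04 to -1.40 over the quartiles. When the heat shock-high cells were chosen within tertiles by Prg4, Clu and Cilp2, Clu had a log2 ratio of 0.35, Prg4 of 0.23 and Cilp2 of 0.46. The tertiles were made from these same genes, so their smaller ratios follow by construction and are a description. Hspb1 and Dnaja4, which did not define the tertiles, stood at 1.69 and 1.94.

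**Figure D4:**
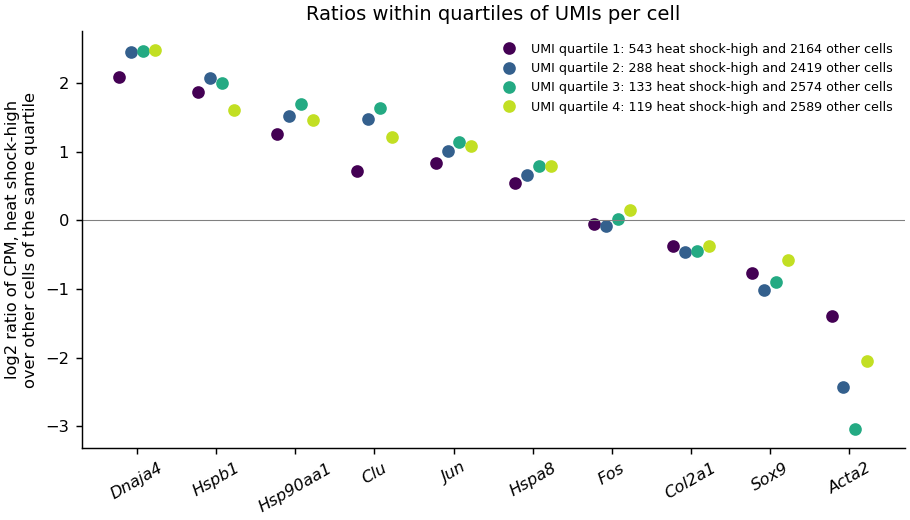
Log2 ratio of CPM, heat shock-high over other cells, within each quartile of the primary cells by UMIs per cell. In every quartile Dnaja4, Hspb1, Hsp90aa1 and Jun lie above 0 and Col2a1, Sox9 and Acta2 below, while Fos lies between -0.09 and 0.15.

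Immediate early genes, which cells switch on within minutes of a stimulus, varied among themselves. Their summed level was 33219 CPM in the heat shock-high and 27639 CPM in the other cells, and 22.2% (19.7 to 24.8) of the heat shock-high cells against 8.65% of the others were in the top decile for it. Of 24 such genes 2 were at least 2-fold higher (1.76% of all genes tested were), 0 at least 2-fold lower (1.36%) and 14 above 0, and the median log2 ratio was 0.10, close to that of all genes. Jun stood at 3792 against 1707 CPM (log2 ratio 1.15, 1.14 to 1.17) and Klf6 at 555 against 257 CPM (1.11). Klf2 and Jund followed at 0.90 and 0.75. The AP-1 partners and other early genes lay near 0, with Fos at 5750 against 5390 CPM (0.09), Egr1 at 2038 against 1937 CPM (0.07) and Junb at 2822 against 2844 CPM (-0.01), and Myc was lowest at 77.9 against 148 CPM (-0.92). The median turned to -0.058 when Dnajb1 was left out of the score and to -0.0087 with TMM scaling. In cultured cells Fos was at 308 CPM and Jun at 262 CPM.

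The integrated stress response, which curbs protein synthesis and induces Atf4 targets, was not higher by the median log2 ratio of its genes (-0.79). Its summed level was 2590 CPM in the heat shock-high and 2456 CPM in the other cells. Of its 7 genes above 10 CPM, Chac1, a glutathione-degrading enzyme, was at least 2-fold lower at 91.9 against 213 CPM (log2 ratio -1.21, -1.31 to -1.12), and Sesn2, Asns and Trib3 had log2 ratios of -0.89, -0.83 and -0.79. Atf4 itself stood at 619 against 730 CPM (-0.24), while Ppp1r15a, which reverses the block on synthesis, was at 0.46 and Atf3, which is also an immediate early gene, at 0.37. The NRF2 targets had a median of -0.07 over 9 genes, with Gclc at 0.68 and Srxn1 at -0.89, and the metallothioneins Mt1 and Mt2 stood at -0.05 and -0.23.

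Few heat shock-high cells carried transcripts of dividing cells. The 19 genes of the G2M phase summed to 47.5 CPM in the heat shock-high and 128 CPM in the other cells. After thinning to 5000 UMIs, 8 heat shock-high cells (0.74%, 0.32 to 1.45) and 1.95% of the others (1.68 to 2.24) held at least 3 UMIs of these genes, against 1.11% and 2.81% without thinning. Top2a, Mki67, Cdk1, Ube2c and Birc5 reached 10 CPM through the other cells alone, with log2 ratios of -1.44 to -1.99, so a lower level was a condition of their entry. The 16 S phase genes did not share this pattern: their summed level was 252 against 254 CPM, and 14.7% (12.6 to 16.9) of heat shock-high and 12.99% (12.3 to 13.7) of other cells held at least 3 UMIs after thinning, against 38.2% and 47.4% without. The G2M ratios depended on how the cells were chosen. Those of Top2a, Mki67, Cdk1, Ube2c and Birc5 all fell under 2-fold at 10000 UMIs or more and within deciles of UMIs. They also did so within tertiles by Prg4, Clu and Cilp2 and with the top 20% of cells. Over the alternative settings, the log2 ratio nearest to equality was -0.13 for Birc5 and -0.42 for Top2a.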

How the data were processed

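The deposited values were UMI counts of each gene in each barcode, not normalised, which the authors had made with Cell Ranger 7.0.0 (per the submitters' processing notes) on GRCm38. The annotation release is not given in the sources used here. Counts of the heat shock-high and of the other cells were summed, giving 10174851 and 122941819 UMIs, and scaled to CPM. Log2 ratios are heat shock-high over other cells, with counts under 3 raised to 3. Sums have exact Poisson, shares exact binomial (Clopper-Pearson) and ratios exact conditional intervals, all at 95% and for counting error only, so differences between animals could not be estimated. Scrublet in scanpy 1.11.5 called 0 of 11746 barcodes as doublets by its automatic threshold and had not worked, so none were removed. The 1118 highest scores were left out as an alternative. The members and gene lists were chosen with earlier results of these data known. Named are the scoring genes, list genes of at least 10 CPM that were past 2-fold or among the 4 most abundant of their list, and the 12 highest and 12 lowest ratios at 50 CPM or more without mitochondrial and ribosomal protein genes. Further list genes were named after their values were seen. Alternatives covered the share of cells, the filters, the score, the scaling (including TMM, edgeR 4.0.16), the CPM minimum and the fold. Malat1, Neat1, Meg3 and Kcnq1ot1 are not analysed here. The calculation was tested on simulated data. Coordinates came from GENCODE M21, and promoters from RefSeq (GRCm38.p6).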

Additional observations from a re-analysis of the deposited data

Results flagged for a closer look

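Barcodes that the filter left out also passed the score cut. Of 702 primary barcodes with at least 1000 but under 5000 UMIs, 170 were at or above 28.9 per 10000 UMIs (24.2%, 21.1 to 27.6), with a median depth of 3920 UMIs. Of 130 cells with at least 0.3% Col1a1, 17 were at or above it (13.1%, 7.81 to 20.1), with a median depth of 7268 UMIs. Both are singled out because they lie outside the cells compared, and none of the 4499 cultured cells reached the cut. At 3920 UMIs, the cut corresponds to fewer UMIs than at 5000, and the part of depth in these shares was not tested.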

How the results depend on the processing

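No paired analysis was possible because each condition had 1 library. Of the 47 named genes past 2-fold, 4 were the scoring genes, whose direction the rule fixed. For the other 43, 0 of 817 combinations of gene and setting turned the direction, 100 fell under 2-fold, and 14 genes, Hspb1, Dnaja4, Dnaja1, Zfand2a and Hsp90aa1 among them, stayed past it under all 19 settings. The 14 include Hspa4l and Tagln, which reached 10 CPM through 1 group alone, so a difference was a condition of their entry. The same holds for others of the 43, among them Trp53inp1, Top2a, Mki67, Cdk1, Ube2c and Birc5. The 142 higher genes became 82 at 10000 UMIs or more, 85 without Hspa1a in the score, 63 with cells chosen within deciles of UMIs, 31 within tertiles by Prg4, Clu and Cilp2 (chosen after seeing the data), 88 with TMM, 426 at 1 CPM, 51 at 50 CPM, 2599 with no minimum and 652 at 1.5-fold (8.09% of genes). The 110 lower genes became 54 with the top 20% of cells, 40 at 10000 UMIs, 29 within deciles of UMIs, 26 within tertiles, 396 at 1 CPM, 38 at 50 CPM, 503 with no minimum and 301 at 1.5-fold. The chaperone median of 0.36 moved to 0.19 at 10000 UMIs and 0.25 within deciles of UMIs and with TMM. The chondrocyte median of -0.26 moved to -0.22 (top 5%), -0.21 (top 20%), -0.15 (10000 UMIs), -0.29 (highest Scrublet scores left out), -0.23 (without Hspa1a), -0.20 (without Hsph1), -0.18 (deciles of UMIs), -0.12 (tertiles), -0.36 (TMM) and -0.23 (50 CPM). The immediate early median of 0.10 moved to 0.061 (top 5%), 0.18 (without Hspa1a), 0.14 (without Hspa1b), 0.17 (without Hsph1), 0.059 (deciles of UMIs), 0.13 (tertiles) and 0.052 (each cell weighing the same), and turned to -0.058 without Dnajb1 and -0.0087 with TMM. The median depth of the heat shock-high cells was 13917 UMIs at 10000 UMIs or more and 10457 within deciles of UMIs, by construction. The cause of the other shifts was not tested. With 10174851 UMIs in all, 3 UMIs correspond to 0.29 CPM in the heat shock-high cells, so differences between rarer transcripts were not detectable.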

Other observations

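Several fibroblast and perichondrium genes were measured although cells with much Col1a1 had been left out. Col3a1 of type III collagen stood at 105 against 55.3 CPM (0.93, 0.83 to 1.02) and Tnmd of tenomodulin at 17.3 against 9.31 CPM (0.89). Tnmd reached 10 CPM through the heat shock-high cells alone, so a higher level there was a condition of its entry. The median of all genes was 0.08, and the abundant Dcn and Lum had ratios of 0.10 and 0.14. Among the genes of maturing chondrocytes, Runx2 stood at 164 against 102 CPM (0.68, 0.61 to 0.76) and the hedgehog receptor gene Ptch1 at 35.3 against 21.8 CPM (0.70, 0.53 to 0.86), while Pth1r was at -0.08 and Mef2c at 0.02.

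Of the p53 targets, Trp53inp1 stood at 18.1 against 8.91 CPM (1.02, 0.79 to 1.25). It reached 10 CPM through the heat shock-high cells alone, and its ratio fell to 0.57 at the lowest of the alternative settings. Sesn1 stood at 55.7 against 33.1 CPM (0.75), while Cdkn1a and Mdm2 were at -0.14 and -0.04. The hypoxia gene Ndrg1 stood at 108 against 61.2 CPM (0.82, 0.72 to 0.91), Vegfa was at -0.38 and Bnip3 at 0.07. Among inflammatory genes, Cebpb and Cebpd had log2 ratios of -0.51 and -0.75 and Nfkbia of 0.16. ZsGreen, which marks cells of 1 of the donor strains, stood at 435 against 447 CPM (-0.04, -0.08 to 0.00).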
